A study of Saccharomyces cerevisiae with 12 samples.

Results

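Glucose restriction at 7 mM potassium (K) was examined in budding yeast by setting 3 libraries from 0.5% glucose against 3 from 2% glucose, which together were 6 of the 12 libraries of the series. Libraries were taken by their column labels (0.5SD7K and 2SD7K), and only rows with yeast gene identifiers were used. The whole series crossed the 2 glucose levels with 7 or 1 mM KCl in synthetic (SD) medium, with 3 replicates, called biological in the labels, in each of 4 groups. RNA was sequenced as paired-end reads, and expression is given in CPM, the count of a gene scaled to the library's yeast total after TMM adjustment. All libraries came from BY4742, a laboratory strain that is haploid, of mating type alpha, auxotrophic, and labelled as wild type. The 6 libraries at 7 mM K held 6277688 to 6987994 counts at yeast genes, and 34.0% to 40.7% of each library's counts lay at rows with WBGene identifiers, which were not used for expression. All libraries carried 1 batch label, and growth stage at harvest was not given in the sources used here, so glucose level and culture stage cannot be told apart.

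Yeast ferments glucose even in air, and high glucose represses genes for respiration and for other carbon sources through the repressor Mig1. When glucose is scarce, the kinase Snf1 relieves that repression, and the activators Cat8 and Adr1 turn on genes for using ethanol, acetate and fatty acids. Amino acid synthesis genes answer to the activator Gcn4, sulfur genes to Met4 together with Cbf1, and chaperone genes to the heat shock factor Hsf1.

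The strain markers could be read in part. LEU2, LYS2 and URA3, which are deleted in BY4742, had no count in any of the 6 libraries. HIS3 was counted at 177, 149 and 144 CPM in 2% glucose and 10.1, 3.70 and 13.5 CPM in 0.5%, and its deletion in this strain removes only a stretch of the gene. The alpha pheromone gene MF(ALPHA)1 and the alpha-specific receptor gene STE3 were counted in every library. The a-specific adhesin subunit gene AGA2 lay between 0.279 and 0.780 CPM, but the a-specific genes were not silent as a set. The 8 listed summed to 379, 345 and 379 CPM at 2% glucose and 256, 303 and 277 CPM at 0.5%. The 4 alpha-specific genes listed summed to 360, 357 and 338 CPM and to 220, 209 and 232 CPM. In the test described below, 3 of these 4 fell, as did 2 of 5 a-specific genes tested, against 17.0% of all genes. The a pheromone genes MFA1 and MFA2 had no count, but neither had the similarly short ribosomal protein genes RPL41A and RPL41B, so they check nothing.

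Replicate 2 at 0.5% glucose stood apart from its partners before any comparison with 2% glucose. It lay more than 2-fold above both partners in 533 genes and more than 2-fold below both in 896, a total of 1429, whereas replicate 1 and replicate 3 lay that far from both of their partners in 33 and 30 genes. Median positions of gene lists, taken as log2 CPM minus the mean of the 2% libraries, show which groups were involved. Genes for ribosomal proteins lay at -1.95 in replicate 2, against -0.15 and -0.20 in its partners. Those for ribosome assembly lay at -1.72 against 0.33 and 0.11, and those for fatty acid oxidation at 2.25 against 0.51 and 0.60. Many results that this library moves are therefore given with and without it. Others, such as those of RAS1, TAT1, AGP1 and HEF3, are given with all libraries only, beside the CPM of each library.

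**Figure D1:**
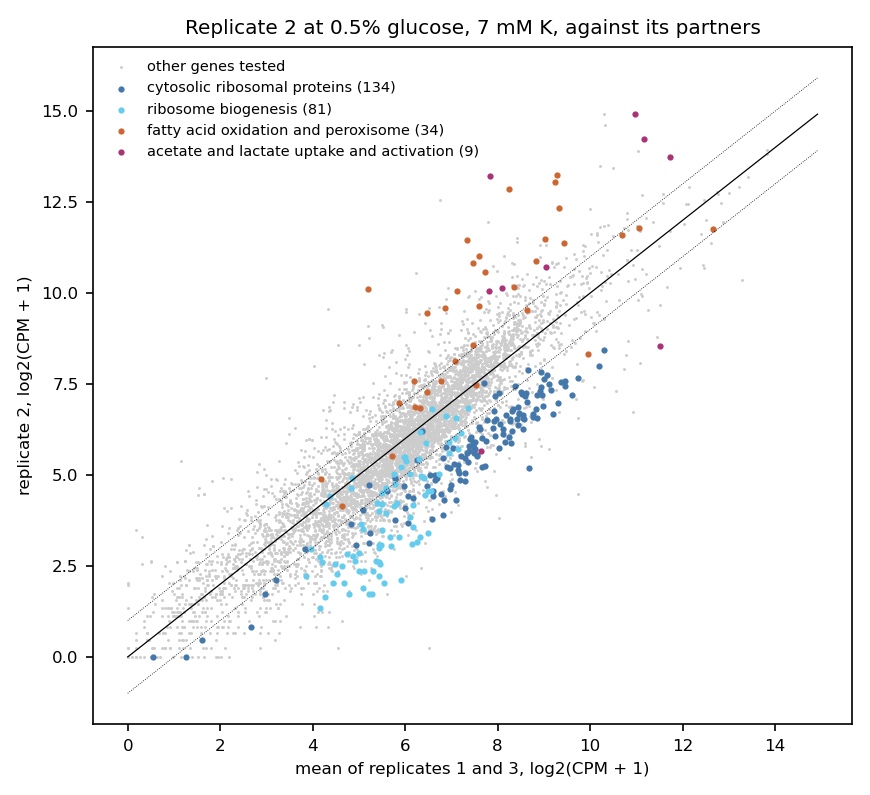
Each point is 1 of the 6127 genes tested, with the mean log2(CPM + 1) of replicates 1 and 3 at 0.5% glucose and 7 mM K on the x axis and that of replicate 2 on the y axis; the solid line is equality and the dotted lines are 2-fold. Ribosomal protein and ribosome assembly genes lie mostly below the lines and fatty acid oxidation genes above them, with median vertical distances from equality of -1.77, -1.92 and 1.61.

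A change in the share of cells in some state and a change in RNA per cell cannot be told apart in these bulk cultures. With all libraries, edgeR's quasi-likelihood test called 2077 of 6127 genes (33.9%) at a Benjamini-Hochberg adjusted p under 0.05. Log2 fold changes, 0.5% against 2% glucose, are given ± a standard error, with 3 libraries a group. That error was derived from the F statistic of the fit to all 12 libraries, so it also takes in spread from the groups at 1 mM K. Of the called genes, 1035 rose (16.9% of genes tested) and 1042 fell (17.0%), with 139 rising and 191 falling by more than 4-fold. Without replicate 2, 1358 rose (22.0%) and 1343 fell (21.8%) of 6164 tested. Without replicate 1 at 2% glucose 667 rose and 788 fell. With all libraries and also without replicate 2, 922 genes rose and 997 fell, and no gene was called in opposite directions. The libraries of the glucose groups did not overlap in 51.3% of genes, with the 0.5% libraries all above in 25.3% and all below in 26.0%. The share of called genes that rose was 49.8%, but 61.8% under upper-quartile scaling and 65.4% when libraries were scaled by the rows with WBGene identifiers. Over all genes the median change was 0.03, 0.15 and 0.23 (log2) under these scalings, and values below are on the first.

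Promoter sequences of 5 members that the results turn on are shown here because each holds a motif known for its gene group; they were chosen with the results in view. They run from 250 bases before to 50 after the annotated start, which is the start codon, and come from the RefSeq annotation of the S288C genome, build R64. Capitals mark the motif on either strand. HIS4 (chrIII:68284-68583, minus strand) and BAT1 (chrVIII:517282-517581, plus strand) hold the Gcn4 motif TGACTC. MET16 (chrXVI:877583-877882, minus) holds the Cbf1 motif CACGTG, and HSP78 (chrIV:974194-974493, minus) holds 2 overlapping heat shock elements, each of 3 GAA units in alternating orientation and 2 bases apart. CTA1 (chrIV:969631-969930, minus) holds the Adr1 motif TTGGAG. Only the motif named for each gene is marked, and other motifs occur unmarked. TGACTC also stands in the windows of MET16 and HSP78. The window of CTA1 also holds GTGGGG and a carbon source element, which are described below.
HIS4: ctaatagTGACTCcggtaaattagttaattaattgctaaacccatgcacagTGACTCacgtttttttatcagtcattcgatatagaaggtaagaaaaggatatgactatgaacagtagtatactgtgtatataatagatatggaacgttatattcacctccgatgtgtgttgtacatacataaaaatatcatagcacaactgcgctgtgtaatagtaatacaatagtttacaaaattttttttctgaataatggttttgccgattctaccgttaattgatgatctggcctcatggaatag
BAT1: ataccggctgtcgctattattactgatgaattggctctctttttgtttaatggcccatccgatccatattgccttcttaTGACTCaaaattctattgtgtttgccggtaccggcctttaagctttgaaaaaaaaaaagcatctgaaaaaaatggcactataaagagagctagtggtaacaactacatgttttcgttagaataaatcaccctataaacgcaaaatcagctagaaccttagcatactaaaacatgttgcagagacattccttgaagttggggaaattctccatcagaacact
MET16: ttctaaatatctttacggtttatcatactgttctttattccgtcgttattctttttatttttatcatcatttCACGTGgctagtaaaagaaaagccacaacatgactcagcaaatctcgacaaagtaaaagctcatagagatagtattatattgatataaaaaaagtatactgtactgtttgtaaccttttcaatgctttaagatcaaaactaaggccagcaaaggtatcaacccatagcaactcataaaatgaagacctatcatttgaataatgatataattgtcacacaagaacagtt
HSP78: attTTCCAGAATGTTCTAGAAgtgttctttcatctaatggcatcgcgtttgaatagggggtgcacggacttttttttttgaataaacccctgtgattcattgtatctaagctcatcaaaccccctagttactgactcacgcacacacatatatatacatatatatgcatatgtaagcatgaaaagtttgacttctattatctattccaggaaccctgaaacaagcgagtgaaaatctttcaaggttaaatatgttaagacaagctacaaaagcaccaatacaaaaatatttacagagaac
CTA1: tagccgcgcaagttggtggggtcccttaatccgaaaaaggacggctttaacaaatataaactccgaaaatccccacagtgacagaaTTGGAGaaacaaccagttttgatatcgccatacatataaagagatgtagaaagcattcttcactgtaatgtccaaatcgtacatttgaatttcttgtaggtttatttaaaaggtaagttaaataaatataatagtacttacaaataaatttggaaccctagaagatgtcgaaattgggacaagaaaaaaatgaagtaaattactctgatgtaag

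Searched on both strands in the 300-base windows of 5660 tested genes, TGACTC stood in 8.13% of promoters, in 12.2% of those of genes that fell and in 8.04% of those of genes that rose. CACGTG stood in 2.95%, and a heat shock element in 0.777%, against 1.81% of promoters of genes that fell and 0.302% of those that rose. TTGGAG stood in 11.4% of all promoters, in 149 of 995 that rose and in 101 of 993 that fell. The Mig1 motif, searched as GCGGGG or GTGGGG, stood in 6.63% of all, 8.94% of those that rose and 5.84% of those that fell, and CCAAT, bound by the Hap complex, in 43.8%, 48.9% and 40.5%. The carbon source element, to which Cat8 binds (CC, any base, T, 4 of any base, CCG), differed little, with 3.46%, 3.52% and 3.02%, as did the stress response element AGGGG, with 21.6%, 21.3% and 21.6%. GCCGCC, the motif of Ume6, a repressor of meiotic genes, stood in 4.89% of all promoters, 5.73% of those that rose and 5.94% of those that fell. A match describes letters only and does not show that a factor was bound.

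**Figure D2:**
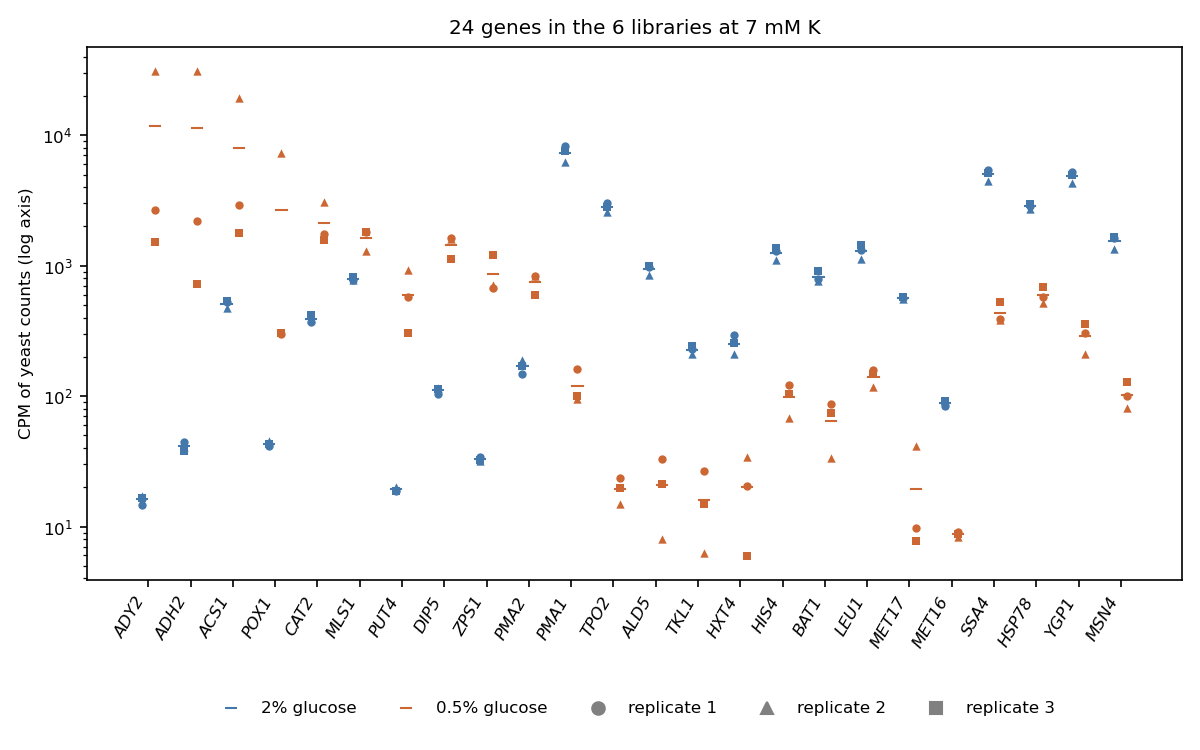
CPM on a log axis for 24 genes in the 3 libraries at 2% glucose (blue) and the 3 at 0.5% glucose (orange), both at 7 mM K, with a bar at each mean and a marker shape per replicate. For all 24 the groups do not overlap, and replicate 2 (triangles) is far above its partners in ADY2, ADH2, ACS1 and POX1 but close to them in DIP5, PMA2, MET16 and SSA4.

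Genes for taking up acetate and lactate and turning them into acetyl-CoA rose together. Of the 9 in the list, 7 rose and none fell (16.9% of all genes tested rose), with a median log2 fold change of 3.85. Without replicate 2, 6 rose and the median was 2.43. ADY2, encoding the main acetate transporter (chromosome III, 132273 to 133124), was at 14.7, 17.3 and 16.6 CPM at 2% glucose and 2651, 30965 and 1532 CPM at 0.5%. All 3 libraries at 0.5% glucose lay far above those at 2%, and replicate 2 lay above the rest. Its log2 fold change was 9.50 ± 1.24 (adjusted p in edgeR = 0.000153), and 7.01 without replicate 2. Of its relatives, ATO3 was at 13.5, 16.6 and 14.8 CPM at 2% glucose and 362, 1138 and 206 CPM at 0.5%, and ATO2 at 77.4, 70.4 and 72.0 CPM at 2% glucose and 430.0, 1690.4 and 653 CPM at 0.5%. They rose by 5.25 and 3.66, or 4.24 and 2.89 without replicate 2.

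JEN1, the lactate and pyruvate permease gene, was at 536, 475 and 422 CPM at 2% glucose and 2917, 13796 and 3899.6 CPM at 0.5%, and ACS1, encoding the acetyl-CoA synthetase of low-glucose growth, was at 525, 475 and 534 CPM at 2% glucose and 2934, 19326 and 1780.3 CPM at 0.5%. Both groups were again separate, with log2 fold changes of 3.85 ± 0.54 and 3.97 ± 0.76, and 2.84 and 2.21 without replicate 2. The constitutive counterpart of ACS1, ACS2, did not pass the test (-0.36, adjusted p in edgeR = 0.519). CYB2, encoding L-lactate dehydrogenase, was high in a single library. It stood at 236, 9522 and 221 CPM at 0.5% glucose against 206, 184 and 192 CPM at 2%, so that its call (4.10 ± 1.19, adjusted p in edgeR = 0.0202) was lost without replicate 2 (0.24). It was also lost without any 1 of the libraries at 2% (4.09 to 4.19), and the value was 4.70 without replicate 1 or 3 at 0.5% glucose. ACH1, encoding a mitochondrial CoA transferase, went the other way in that library. It was at 566, 529 and 546 CPM at 2% glucose and 3041, 371 and 2845 CPM at 0.5%, with a log2 fold change of 1.93 ± 0.55 and 2.43 without replicate 2, and the call was lost without replicate 1 (1.55) or 3 (1.63) at 0.5% glucose or any 1 of the libraries at 2% (1.91 to 1.94).

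RGI2, a gene of respiratory growth, had a rise of similar size, from 7.33, 6.19 and 9.17 to 1282, 11506 and 1097 CPM. Its log2 fold change was 9.26 ± 1.03 (adjusted p in edgeR = 4.63e-05), and 7.30 without replicate 2, with no overlap of the groups. Among genes for making and oxidizing ethanol, 6 of 16 rose (37.5%, against 16.9% of all genes) and 4 fell (25.0%, against 17.0%). Isozymes moved in opposite directions. ADH1, which makes ethanol during fermentation, fell from 5648, 4503 and 5070.4 to 2133, 2321 and 2015 CPM, with a log2 fold change of -1.24 ± 0.22 (adjusted p in edgeR = 0.00111). ADH2, which oxidizes ethanol, rose from 44.6, 40.4 and 38.3 to 2184, 30994 and 724 CPM, by 8.10, by 5.15 without replicate 2 and by 8.70 without replicate 3. ADH4, another alcohol dehydrogenase gene, was at 39.3, 42.2 and 38.4 CPM at 2% glucose and 539, 368 and 1082 CPM at 0.5%. All 3 of its libraries at 0.5% glucose were higher by a wide margin, and replicate 2 was the lowest of them, with 4.05 ± 0.34 (adjusted p in edgeR = 7.01e-06) and 4.34 without that library. ALD5, encoding a mitochondrial aldehyde dehydrogenase (chromosome V, 304030 to 305592), fell from 983, 848 and 994 to 33.2, 7.99 and 21.0 CPM (-5.49 ± 0.47, adjusted p in edgeR = 7.08e-06). ALD4, encoding the major mitochondrial enzyme of the same reaction, was at 1444, 25046 and 1142 CPM at 0.5% glucose against 780.3, 752 and 786 CPM at 2%. Its log2 fold change was 3.57, but 0.74 without replicate 2, and the call was lost without any 1 of the libraries at 2% (3.59 to 3.62).

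The same split between related genes ran through several other reactions. NDE1 and NDE2 encode the external NADH dehydrogenases of mitochondria. NDE1 fell from 1549.8, 1276 and 1379 CPM to 244, 378 and 195 CPM, and NDE2 rose from 372, 334 and 371 CPM to 1556, 3049.9 and 1357 CPM. No library of either glucose group overlapped the other, and the log2 fold changes were -2.36 ± 0.25 (adjusted p in edgeR = 3.50e-05) and 2.47 ± 0.32 (adjusted p in edgeR = 0.000148). PMA1 and PMA2 encode the abundant and the minor proton pump of the plasma membrane. PMA1 (chromosome VII, 479910 to 482666) was at 8245, 6206 and 7537 CPM at 2% glucose and 161, 94.7 and 99.8 CPM at 0.5%, and PMA2 (chromosome XVI, 482843 to 485686) was at 148, 189 and 171 CPM at 2% glucose and 836, 828 and 600.5 CPM at 0.5%. The minor isoform therefore stood above the major one in all 3 libraries at 0.5% glucose in CPM, the coding regions being of similar length. Whether reads were shared between these 2 related genes was not examined. Their log2 fold changes were -5.95 ± 0.34 and 2.16 ± 0.28 (adjusted p in edgeR = 0.000151).

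GDH1 and GDH3 encode the glutamate dehydrogenases that fix ammonium. GDH1 fell from 169, 199 and 162 CPM to 52.4, 25.1 and 63.5 CPM, and GDH3 rose from 761, 689 and 726 CPM to 3005, 2498 and 2753 CPM, with log2 fold changes of -1.91 ± 0.28 and 1.92 ± 0.36. BAT1 and BAT2 encode the mitochondrial and cytosolic transaminases of branched-chain amino acids. BAT1 fell from 797, 763 and 905 CPM to 86.5, 33.5 and 73.8 CPM (-3.67 ± 0.34, adjusted p in edgeR = 1.42e-05). BAT2 rose from 215, 201 and 206 CPM to 429, 1469 and 369 CPM, by 1.87 and by 0.95 without replicate 2. Of the ADP/ATP carrier genes, PET9 fell (-1.08 ± 0.20) and AAC1 rose (1.32 ± 0.24). MPC2 and MPC3, named here after their values were seen, encode the alternative subunits of the mitochondrial pyruvate carrier known from fermenting and respiring cells. MPC2 fell from 172, 164 and 162 CPM to 45.5, 66.3 and 63.8 CPM (-1.51 ± 0.18, adjusted p in edgeR = 7.52e-05), and MPC3 rose from 56.2, 44.9 and 44.4 CPM to 239.6, 1546 and 265 CPM, by 3.82 and by 2.38 without replicate 2. CDC19, the main pyruvate kinase gene, did not pass the test (0.29, adjusted p in edgeR = 0.507) with all libraries and rose by 0.61 without replicate 2, and its minor counterpart PYK2 rose from 59.5, 56.6 and 51.3 to 139.8, 89.8 and 149.7 CPM (1.18 ± 0.24). Of 40 genes in the list of isozyme pairs, 9 rose (22.5%, against 16.9% of all genes), 10 fell (25.0%, against 17.0%) and 21 did not pass the test.

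**Figure D3:**
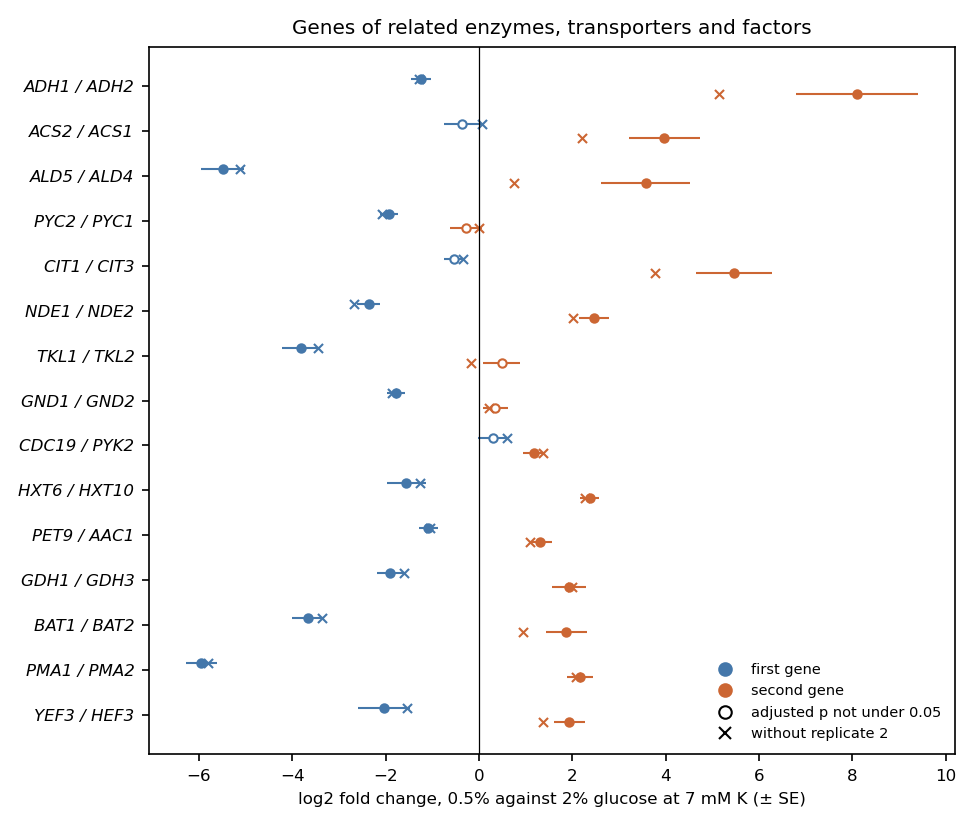
Log2 fold changes at 7 mM K with their standard errors (edgeR, all libraries) for 15 pairs of related genes, the first of each pair in blue and the second in orange; open circles did not pass the test and crosses are the values without replicate 2. The members of NDE1/NDE2, PMA1/PMA2, GDH1/GDH3, BAT1/BAT2 and PET9/AAC1 lie on opposite sides of 0 with and without that replicate, whereas ALD4 moves from 3.57 to 0.74.

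Genes for oxidizing fatty acids and building peroxisomes numbered 34, of which 23 rose and 3 fell, against 16.9% and 17.0% of all genes. The median was 1.57. Without replicate 2, 20 rose at a median of 0.57, and without replicate 3 at 2% glucose 15 rose. DESeq2 called 14 up. POX1, encoding acyl-CoA oxidase, was at 41.7, 45.0 and 42.9 CPM at 2% glucose and 298, 7376 and 303 CPM at 0.5%, and CTA1, the peroxisomal catalase gene whose promoter is shown above, was at 81.0, 78.3 and 76.4 CPM at 2% glucose and 632, 9764 and 614 CPM at 0.5%. In both, replicate 2 exceeded its partners more than 10-fold, and even the lower 2 libraries exceeded all at 2% glucose. Their log2 fold changes were 5.94 ± 1.13 and 5.55 ± 1.00, and 2.80 and 2.99 without replicate 2. DESeq2 gave no adjusted p for either gene.

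Of 4 carnitine genes in the list, which move acetyl units between compartments, CAT2, CRC1 and YAT2 rose, and YAT1 did not pass the test (1.41, adjusted p in edgeR = 0.0693), though it did in DESeq2 (1.41) and without replicate 3 at 0.5% glucose and 1 mM K (1.43). CAT2, encoding carnitine acetyltransferase, was at 372, 388 and 417 CPM at 2% glucose and 1739.6, 3097 and 1563 CPM at 0.5%. CRC1, the mitochondrial carnitine carrier gene, was at 101, 101 and 117 CPM at 2% glucose and 1102, 320.2 and 887 CPM at 0.5%, and YAT2, encoding another carnitine acetyltransferase, was at 1277, 1154 and 1315 CPM at 2% glucose and 6500.3, 3479.5 and 6521 CPM at 0.5%. The groups did not overlap, and replicate 2 was the highest for CAT2 but the lowest for CRC1 and YAT2. Their log2 fold changes were 2.44 ± 0.28 (adjusted p in edgeR = 6.35e-05), 2.86 ± 0.39 (adjusted p in edgeR = 0.000192) and 2.14 ± 0.28 (adjusted p in edgeR = 0.000171), and 2.08, 3.23 and 2.38 without replicate 2. Against the list, the import receptor gene PEX21 fell (-1.83 ± 0.23), as did ANT1, the peroxisomal ATP carrier gene (-0.90 ± 0.21). The Adr1 motif TTGGAG stood in 13 of the 34 promoters (38.2%, against 11.4% of all), of which 11 rose and none fell. Of the 21 without it, 12 rose and 3 fell. The medians of these 2 sets were 2.21 and 1.40, but 0.56 and 0.58 without replicate 2. The carbon source element stood in 5 of the 34 promoters (14.7%, against 3.46% of all), of which 4 rose and none fell. Of the 29 without it, 19 rose and 3 fell. The medians with and without the element were 5.13 and 1.40, and 2.38 and 0.50 without replicate 2.

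Enzymes that feed and turn the glyoxylate and tricarboxylic acid cycles did not move as 1 group. MLS1, encoding malate synthase of the glyoxylate cycle, rose from 778, 773 and 819 to 1805, 1292 and 1816 CPM (1.05 ± 0.21, adjusted p in edgeR = 0.00282). CIT2, encoding peroxisomal citrate synthase, was at 1546, 1357 and 1375 CPM at 2% glucose and 10167, 1316 and 9919 CPM at 0.5%, so its groups overlapped through replicate 2, and its log2 fold change was 2.32 ± 0.55, or 2.82 without that library. ICL1, encoding isocitrate lyase, and PCK1, encoding the gluconeogenic carboxykinase, did not pass the test. ICL1 was at 1936, 1929 and 2021 CPM at 2% glucose and 2593, 270.3 and 1802 CPM at 0.5%, and PCK1 at 809.9, 828 and 748 CPM at 2% glucose and 1211, 189 and 669 CPM at 0.5%, with replicate 2 the lowest in both. PYC2, a pyruvate carboxylase gene, fell from 1015, 859 and 1021 to 220.5, 303 and 238 CPM (-1.93 ± 0.19, adjusted p in edgeR = 1.73e-05). VID24 and GID10, which encode substrate receptors of the ubiquitin ligase that degrades gluconeogenic enzymes, both fell, with -1.72 ± 0.28 and -1.93 ± 0.19. In the tricarboxylic acid cycle list, 3 of 23 rose and 8 fell, or 3 and 10 without replicate 2. The isocitrate dehydrogenase genes IDH1 and IDH2 fell (-1.44 ± 0.21 and -1.68 ± 0.34), as did MAE1, encoding mitochondrial malic enzyme (-2.46 ± 0.30). CIT3, encoding a methylcitrate synthase, rose by 5.46, and by 3.77 without replicate 2.

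Of 25 respiratory chain genes, 2 rose (8.0%, against 16.9% of all genes) and 5 fell (20.0%, against 17.0%), so that the share that fell was near that of all genes. HAP4, encoding the activating subunit of the regulator of respiratory genes, fell from 668, 566 and 668 to 231, 87.1 and 188 CPM (-1.91 ± 0.34, adjusted p in edgeR = 0.00116), and its partner HAP5 fell as well (-1.41 ± 0.19). Of the glycolysis genes, 1 of 20 rose and 3 fell. TDH3, encoding the main glyceraldehyde-3-phosphate dehydrogenase, was at 14586, 12619 and 14737 CPM at 2% glucose and 14852, 14384 and 14148 CPM at 0.5% and did not pass the test (0.05, adjusted p in edgeR = 0.881). PFK1 and PFK2, which encode the subunits of phosphofructokinase, fell (-1.14 ± 0.21 and -1.27 ± 0.20). In the pentose phosphate pathway, TKL1, the main transketolase gene (chromosome XVI, 692796 to 694838), fell from 229, 211 and 242 to 26.8, 6.24 and 14.9 CPM (-3.81 ± 0.41, adjusted p in edgeR = 3.92e-05), and GND1, the main phosphogluconate dehydrogenase gene, fell from 123, 137 and 122 to 40.7, 42.1 and 28.8 CPM (-1.78 ± 0.19, adjusted p in edgeR = 3.14e-05).

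Sugar transporter genes moved in both directions, with 6 of 17 up (35.3%, against 16.9% of all genes) and 2 down (11.8%, against 17.0%). HXT4, a glucose transporter gene, fell from 294, 211 and 255 to 20.4, 34.1 and 5.99 CPM, with -3.67 and -4.26 without replicate 2. HXT6, a high-affinity transporter gene that shares reads with its near-identical neighbour HXT7 and is therefore uncertain, fell from 1171, 1390.1 and 1078 to 387, 233 and 618 CPM (-1.56 ± 0.41). HXT10, a rarely expressed family member, rose from 8.80, 11.1 and 10.8 to 46.6, 60.2 and 51.9 CPM (2.37 ± 0.21, adjusted p in edgeR = 8.47e-06), and HXT14, another, from 0.489, 0.864 and 0.482 to 25.3, 9.55 and 34.0 CPM (5.18 ± 0.58). Of the galactose genes, GAL7 and GAL10 rose (2.34 ± 0.33 and 1.68 ± 0.34) from low levels, GAL7 from 5.38, 4.89 and 7.24 to 37.2, 19.1 and 32.2 CPM. SUC2, the invertase gene, did not pass the test with all libraries (-0.64, adjusted p in edgeR = 0.0535) and fell without replicate 2 (-0.73). Regulators of glucose sensing fell in 7 of 33 cases (21.2%) and rose in 4 (12.1%), or in 2 without any 1 of the libraries at 2% glucose, which is near the shares of all genes. Among the falls were the repressor gene NRG1 (-0.93 ± 0.16) and the casein kinase gene YCK2 (-1.63 ± 0.19). TOS3, encoding a kinase that activates Snf1, fell from 182, 165 and 167 to 9.84, 10.3 and 12.2 CPM (-3.98 ± 0.21, adjusted p in edgeR = 3.74e-07), and REG2, encoding a subunit that directs the phosphatase Glc7, rose from 62.2, 55.7 and 51.0 to 393, 296 and 355 CPM (2.63 ± 0.19, adjusted p in edgeR = 2.32e-06).

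Genes for making amino acids fell in most pathways. Of the 62 tested genes in 6 lists, 43 fell and 4 rose, against 17.0% and 16.9% of all genes. By pathway, 5 of 7 for histidine fell and none rose, as did 8 of 10 for arginine with none up. The histidine count includes HIS3, part of which is deleted in this strain; without it 4 of 6 fell, and 42 of 61 over the 6 lists. For aromatic amino acids 11 of 13 fell and 1 rose, for branched-chain amino acids 9 of 11 fell and 1 rose, and for threonine, serine and glycine 7 of 13 fell and 1 rose. Lysine synthesis had 3 of 8 down and 1 up. The medians were -2.04, -1.30, -2.03, -2.26, -0.92 and -0.45. Without replicate 2 they were -1.80, -1.11, -1.66, -1.82, -1.12 and -0.17.

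HIS4, which encodes an enzyme of 3 histidine steps and whose promoter is shown above, fell from 1305, 1110.1 and 1373 CPM to 121, 68.0 and 104 CPM (-3.69 ± 0.28, adjusted p in edgeR = 2.62e-06). HIS5, for a later step, fell from 460.0, 478 and 508 CPM to 118, 91.2 and 113 CPM (-2.17 ± 0.16, adjusted p in edgeR = 2.32e-06). In both, every library at 0.5% glucose lay more than 3-fold below the lowest at 2%. HIS1, for the first step, was the exception in the pathway. It stood at 249, 257 and 274 CPM at 2% glucose and at 80.8, 1496 and 68.2 CPM at 0.5%, high in replicate 2 and low in its partners. It did not pass the test (1.07, adjusted p in edgeR = 0.363), and without replicate 2 it fell by 1.80 on the log2 scale.

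For branched-chain amino acids, LEU1, encoding isopropylmalate isomerase, fell from 1314, 1122 and 1438 CPM to 159, 118 and 147 CPM (-3.19 ± 0.28, adjusted p in edgeR = 8.47e-06). ILV3, encoding dihydroxyacid dehydratase, fell from 2028, 1716 and 1963 CPM to 302, 89.8 and 245 CPM (-3.16 ± 0.38, adjusted p in edgeR = 8.82e-05), and ILV5, encoding the reductoisomerase, fell from 2357, 2076 and 2334 CPM to 587, 248 and 564 CPM (-2.27 ± 0.32, adjusted p in edgeR = 0.000227). In ILV3 and ILV5 replicate 2 was the lowest library by more than 2-fold, and without it they fell, with -2.80 and -1.97. ARG4, for the last step of arginine synthesis, fell from 1434, 1331 and 1428 CPM to 178, 86.2 and 197 CPM (-3.18 ± 0.30, adjusted p in edgeR = 1.59e-05), and ARO3, for the first aromatic step, fell from 1016, 841 and 984 CPM to 154, 118 and 139.8 CPM. TRP5 fell with -2.16 ± 0.18, whereas TRP1, the gene of 1 middle step of tryptophan synthesis, rose from 50.2, 53.7 and 50.8 CPM to 89.7, 106 and 91.6 CPM (0.89 ± 0.11). HOM2, for an early step from aspartate, fell from 1183, 1086 and 1214 CPM to 115, 64.7 and 111 CPM (-3.58 ± 0.26, adjusted p in edgeR = 2.32e-06). ASN1 and ASN2, which encode asparagine synthetases, fell from 1124, 1067 and 1123 CPM to 157, 17.0 and 124 CPM and from 507, 466 and 521 CPM to 93.8, 32.9 and 86.8 CPM.

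In these 6 lists the Gcn4 motif TGACTC stood in 34 promoters, of which 25 fell and 1 rose, at a median of -1.62. Of the 28 without it, 18 fell and 3 rose, at a median of -1.01. Without replicate 2 the medians were -1.64 and -0.97. Leaving HIS3 out, 24 of 33 with the motif fell, at a median of -1.54. GCN4 itself was at 1785, 1611 and 1829.9 CPM at 2% glucose and 1332, 1420.5 and 1308 CPM at 0.5% and did not pass the test with all libraries (-0.36, adjusted p in edgeR = 0.156), but fell without replicate 2 (-0.40). PCL5, encoding the cyclin that marks Gcn4 for breakdown, fell from 836, 695 and 799 to 82.0, 48.5 and 93.8 CPM (-3.37 ± 0.29, adjusted p in edgeR = 7.39e-06). Purine synthesis genes, of which 13 of 17 carried TGACTC, moved less. Of them 5 fell (29.4%, against 17.0% of all genes) and none rose (against 16.9%). Their median was -0.14, which turned to 0.04 under WBGene scaling. ADE12 and ADE3 were among those that fell (-1.59 ± 0.12 and -1.51 ± 0.17).

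**Figure D4:**
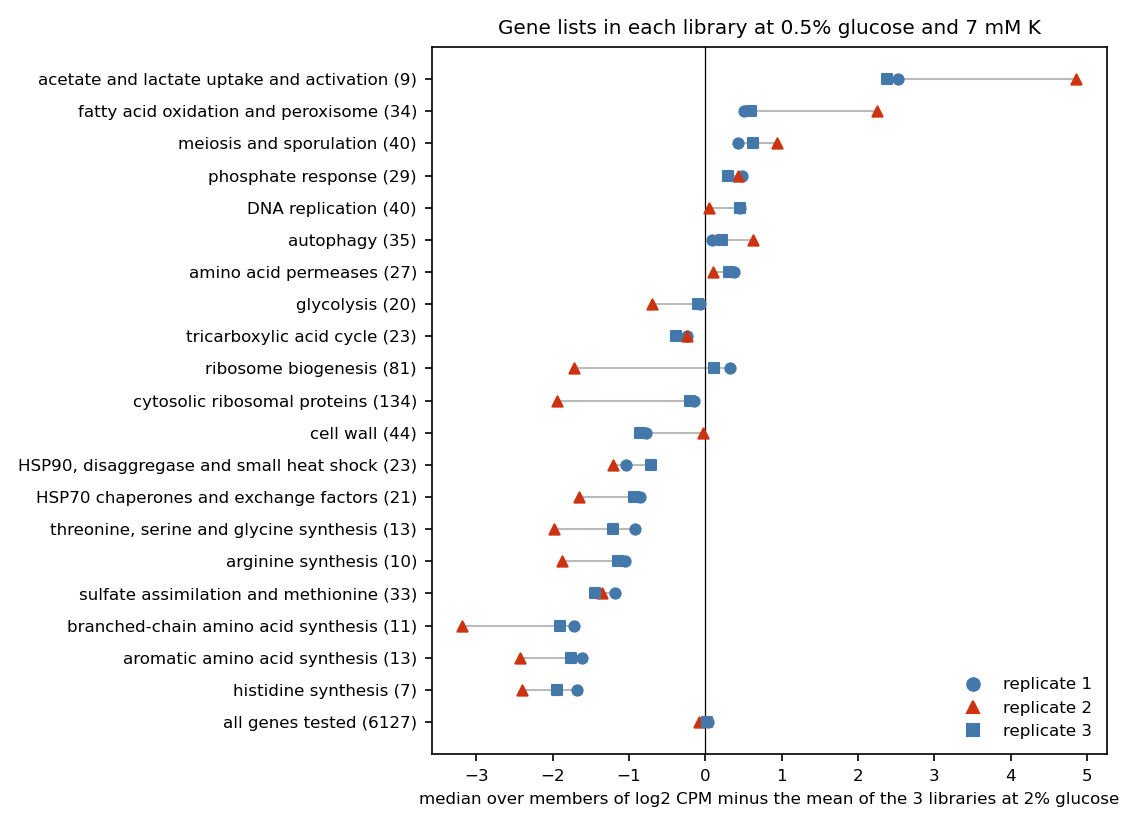
For each gene list (number of genes tested in brackets), the median over members of log2 CPM minus the mean of the 2% libraries, in each library at 0.5% glucose and 7 mM K. Replicates 1 and 3 lie close together in every list shown; replicate 2 lies further from 0 for acetate uptake (4.86), near its partners for sulfate assimilation (-1.36) and near 0 for the cell wall (-0.02).

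Of 33 genes for taking up sulfate and making methionine, 20 fell and 2 rose, against 17.0% and 16.9% of all genes. The median was -1.28, and -1.37 without replicate 2. This list was alike in all 3 libraries, with medians of -1.18, -1.36 and -1.45. MET16, encoding the reductase of activated sulfate, fell from 84.1, 91.1 and 91.3 CPM to 9.02, 8.38 and 8.77 CPM. MET10, a sulfite reductase subunit gene, fell from 387, 338 and 384 CPM to 61.1, 55.4 and 48.7 CPM (-2.75 ± 0.18, adjusted p in edgeR = 1.33e-06). MET17, encoding the enzyme that takes sulfide into homocysteine, fell from 561, 558 and 579 CPM to 9.71, 41.1 and 7.80 CPM, with a log2 fold change of -4.88 and -6.01 without replicate 2. The S-adenosylmethionine synthetase genes SAM1 and SAM2 fell from 135, 129.8 and 106 CPM to 8.75, 14.2 and 8.49 CPM and from 101, 99.9 and 95.8 CPM to 18.2, 10.5 and 15.6 CPM, though reads may be shared between such similar copies. The Cbf1 motif CACGTG stood in 10 of the 33 promoters (30.3%, against 2.95% of all). Of these 8 fell and none rose, at a median of -1.67, and of the 23 others 12 fell and 2 rose, at a median of -1.03.

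Amino acid permease genes went both ways, with 10 of 27 up (37.0%, against 16.9% of all genes) and 5 down (18.5%, near the 17.0% of all). PUT4, the proline permease gene (chromosome XV, 986899 to 988782), rose from 18.9, 20.1 and 18.8 CPM to 572, 926 and 305 CPM (4.96 ± 0.42, adjusted p in edgeR = 6.76e-06). DIP5, the permease gene for acidic amino acids (chromosome XVI, 41043 to 42869), rose from 104, 115 and 113 CPM to 1627, 1593 and 1126 CPM (3.71 ± 0.23, adjusted p in edgeR = 8.72e-07). TAT1, a permease gene for tyrosine and branched-chain amino acids, rose from 40.1, 41.6 and 28.8 CPM to 487, 87.3 and 365 CPM (3.09 ± 0.50, adjusted p in edgeR = 0.000625). The groups were separate for all 3, and replicate 2 was the highest for PUT4 and the lowest for TAT1. AGP1, a broad-range permease gene, fell from 711, 729.8 and 638 CPM to 214, 45.6 and 163 CPM (-2.30 ± 0.41, adjusted p in edgeR = 0.00134), as did the methionine permease gene MUP3, from 97.3, 111 and 107 CPM to 14.1, 11.5 and 10.7 CPM (-3.12 ± 0.42, adjusted p in edgeR = 0.000187). DAL80, encoding a repressor of nitrogen-use genes, rose from 3.75, 3.31 and 2.41 CPM to 48.0, 18.3 and 41.4 CPM (3.50 ± 0.45, adjusted p in edgeR = 0.000135).

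Chaperone genes fell. Over all genes 17.0% fell and 16.9% rose. In the list of HSP70 chaperones and their exchange factors 11 of 21 fell (52.4%) and 1 rose (4.8%), at a median of -1.13. In the list of HSP90, disaggregase and small heat shock genes 14 of 23 fell and 3 rose (1 without replicate 1 at 2%), at -0.98. Without replicate 2 the medians were -0.85 and -0.86. SSA4, the stress-induced HSP70 gene, was at 5447, 4491 and 5178 CPM at 2% glucose and 389.7, 386 and 529.8 CPM at 0.5%. HSP104, the disaggregase gene, was at 11255, 10029 and 11056 CPM at 2% glucose and 3220.4, 3328 and 3573 CPM at 0.5%, and HSP78, its mitochondrial counterpart whose promoter is shown above, was at 2867, 2727 and 2963 CPM at 2% glucose and 574, 522 and 687 CPM at 0.5%. In all 3 the libraries at 0.5% glucose were close to each other and far below those at 2%, with log2 fold changes of -3.53 ± 0.38, -1.68 ± 0.32 (adjusted p in edgeR = 0.00186) and -2.26 ± 0.31 (adjusted p in edgeR = 0.000192).

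The HSP90 cofactor genes CPR6 and AHA1 fell as well, CPR6 from 802, 778 and 833 CPM to 153, 180.3 and 206 CPM (-2.16 ± 0.32, adjusted p in edgeR = 0.000319) and AHA1 from 478, 451 and 491 CPM to 160.3, 135 and 155 CPM (-1.66 ± 0.18, adjusted p in edgeR = 3.83e-05). SSA1 and SSA2, constitutive HSP70 genes of near-identical sequence between which reads may be split, fell from 7209, 6388 and 7228 CPM to 1452, 1476 and 1347 CPM and from 1077, 1083 and 1122 CPM to 164, 186 and 181 CPM. Against the list, ECM10, encoding a mitochondrial HSP70, rose from 107, 115 and 121 CPM to 204, 203 and 239 CPM (0.92 ± 0.14, adjusted p in edgeR = 0.000369), and HSP32, a gene of a family of near-identical copies, rose (1.51 ± 0.29). The heat shock elements were found in 9 of the 44 promoters of both lists, of which 7 fell and none rose, at a median of -1.44. Of the other 35, 18 fell and 4 rose, at a median of -0.75.

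Outside the chaperones, stress genes had no common direction, with 10 of 40 up (25.0%, against 16.9% of all genes) and 11 down (27.5%, against 17.0%). The median was 0.14, but -0.25 without replicate 2. All genes described next fell, and none of the 10 that rose is among them, so they do not stand for the list. MSN4, encoding an activator of stress genes, fell from 1643, 1345 and 1656 CPM to 99.6, 81.5 and 128 CPM (-3.91 ± 0.28, adjusted p in edgeR = 2.32e-06). GPP2, encoding an enzyme of glycerol synthesis, fell from 303, 255 and 295 CPM to 28.4, 9.36 and 14.2 CPM (-4.02 ± 0.36, adjusted p in edgeR = 9.64e-06), and YGP1, encoding a secreted glycoprotein, fell from 5188, 4325 and 4989 CPM to 303, 210.5 and 358 CPM (-4.06 ± 0.38, adjusted p in edgeR = 1.37e-05). CIP1, encoding a cyclin-dependent kinase inhibitor induced by stress, fell from 461, 393 and 459 CPM to 20.2, 30.0 and 18.1 CPM (-4.27 ± 0.35, adjusted p in edgeR = 5.52e-06). In each, the highest library at 0.5% glucose was more than 8-fold below the lowest at 2%. COM2, a transcription factor gene, fell from 784, 664 and 792 CPM to 25.3, 9.36 and 26.3 CPM.

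Of 44 cell wall genes, 19 fell (43.2%, against 17.0% of all genes) and 3 rose (6.8%, against 16.9%). Of these genes 5 rose without replicate 1 at 0.5% glucose and 1 without replicate 2 or 3 at 2%. Their median was -0.49, and -0.87 without replicate 2, whose own median was -0.02 against -0.78 and -0.86. GAS1, encoding a glucan-remodelling enzyme, fell from 205, 198 and 178 CPM to 50.03, 48.1 and 31.3 CPM (-2.17 ± 0.25, adjusted p in edgeR = 5.58e-05). The mannoprotein genes CWP1 and CIS3 fell from 21.5, 22.6 and 19.9 CPM to 5.88, 3.51 and 2.37 CPM and from 24.9, 27.5 and 24.1 CPM to 5.60, 4.68 and 4.73 CPM, and the abundant PIR3 fell from 8230.0, 7282 and 8026 CPM to 2238, 1614 and 2223 CPM (-1.95 ± 0.25, adjusted p in edgeR = 0.000123). TIR4, a mannoprotein gene of anaerobic growth, rose from 14.8, 15.5 and 12.7 CPM to 38.4, 52.8 and 52.9 CPM (1.74 ± 0.26, adjusted p in edgeR = 0.000369). TIP1, its relative, was at 113, 6004 and 102 CPM at 0.5% glucose against 33.6, 39.9 and 32.5 CPM at 2%, with a log2 fold change of 5.87, 1.60 without replicate 2, and 6.48 and 6.49 without replicates 1 and 3.

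Genes of ion and small-molecule transport held some of the largest changes. TPO2, encoding a polyamine exporter (chromosome VII, 763762 to 765606), fell from 3045, 2562 and 2819.9 CPM to 23.5, 14.8 and 19.9 CPM, and its relatives TPO1 and TPO3 fell with -1.95 ± 0.23 and -2.27 ± 0.31. Beside PMA1, the genes AST1 and HRK1 fell. AST1, which encodes a protein that helps deliver Pma1 to the cell surface, fell from 261, 187 and 228 CPM to 11.1, 4.68 and 8.91 CPM (-4.75 ± 0.27, adjusted p in edgeR = 5.74e-07), and HRK1, which encodes a kinase that activates Pma1, fell from 1300.4, 1087 and 1308 CPM to 148, 162 and 145 CPM (-3.02 ± 0.28, adjusted p in edgeR = 1.39e-05). Of the potassium genes, HAL5, encoding a kinase that stabilizes the Trk transporters, fell from 663, 553 and 636 CPM to 156, 128 and 147 CPM (-2.10 ± 0.33, adjusted p in edgeR = 0.000573). The transporter genes themselves were at 150.1, 139 and 141 CPM at 2% glucose and 135, 93.9 and 142 CPM at 0.5% for TRK1 (not called) and 84.9, 71.1 and 83.6 CPM at 2% glucose and 135, 356 and 133 CPM at 0.5% for TRK2. TRK2 rose by 1.38, and by 0.75 without replicate 2, and the call was lost without any 1 of the libraries at 2% (1.33 to 1.44).

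In the phosphate list 11 of 29 rose (37.9%, against 16.9% of all genes) and 4 fell (13.8%, against 17.0%). PHO89, encoding a sodium and phosphate cotransporter, was at 11.4, 15.8 and 11.3 CPM at 2% glucose and 678, 54.6 and 357 CPM at 0.5%, with a log2 fold change of 4.82, 5.33 without replicate 2 and 3.998 without replicate 1. The phosphatase gene PHM8 fell from 1032, 876 and 1006 CPM to 173, 74.3 and 152 CPM (-2.87 ± 0.32, adjusted p in edgeR = 4.97e-05). Of the zinc genes 4 of 10 rose and 1 fell, among them ZPS1, encoding a zinc-regulated surface protein, which rose from 34.0, 31.9 and 32.6 CPM to 671, 717 and 1204 CPM (4.71 ± 0.44, adjusted p in edgeR = 1.42e-05), and IZH4, a zinc homeostasis gene, which rose with 2.08 ± 0.31. ADH4, given above, is also in that list. The zinc importer gene ZRT1 did not pass the test (0.17, adjusted p in edgeR = 0.736). SIT1, encoding an iron-siderophore transporter, rose from 33.7, 33.2 and 21.1 CPM to 174, 177 and 231 CPM (2.72 ± 0.28, adjusted p in edgeR = 2.65e-05). BIO3, for biotin synthesis, fell from 282, 247 and 288 CPM to 18.6, 16.4 and 18.8 CPM (-3.92 ± 0.23, adjusted p in edgeR = 6.60e-07), and BOP2, a gene of unknown function, rose from 85.9, 86.1 and 90.1 CPM to 1491, 1243 and 1291 CPM (3.94 ± 0.25, adjusted p in edgeR = 1.12e-06).

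Counts of translation genes moved with the libraries and the scaling. Over all genes 16.9% rose and 17.0% fell, and 22.0% and 21.8% without replicate 2 at 0.5% glucose. Of 134 cytosolic ribosomal protein genes tested, 3 rose (2.2%) and 15 fell (11.2%) at a median of -0.58. Without replicate 2 at 0.5% glucose 13 rose and 25 fell at -0.18. Without replicate 1 at 0.5% glucose 24 fell, and without 1 of the libraries at 2% 3 or 4 fell. By library totals 3 fell, and by WBGene rows 1. Of 81 ribosome assembly genes, 6 rose (7.4%) and 4 fell (4.9%) at -0.13, and without replicate 2 at 0.5% glucose 24 rose and 4 fell at 0.22. Without replicate 1 or 3 at 0.5% glucose 3 and 2 of them rose, and without replicate 1 or 3 at 2% 2 and 1 rose; 2 fell without any 1 of the libraries at 2%. The sign of the ribosome assembly median also turned with scaling, to 0.15 with the WBGene rows. Single genes stood out from this with all 3 libraries alike. RPS22B, a small-subunit gene, rose from 21.2, 18.0 and 18.3 CPM to 88.6, 73.3 and 75.6 CPM. TIF4632, encoding a translation initiation scaffold, fell from 169, 178 and 181 CPM to 63.6, 42.1 and 69.5 CPM (-1.59 ± 0.17, adjusted p in edgeR = 3.50e-05), and RSM10, for a mitochondrial ribosomal protein, rose from 52.0, 50.2 and 46.6 CPM to 128, 147 and 157 CPM (1.54 ± 0.21, adjusted p in edgeR = 0.000198). Elongation factor 3 is encoded by YEF3 and by its rarely used copy HEF3. YEF3 was at 1140.4, 1118 and 1174 CPM at 2% glucose and 468, 54.8 and 315 CPM at 0.5% and HEF3 at 359.6, 347 and 373 CPM at 2% glucose and 1032, 2265 and 830.2 CPM at 0.5%, with log2 fold changes of -2.03 ± 0.55 (-2.63 without replicate 1) and 1.93 ± 0.34.

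Of 40 genes for DNA replication, 14 rose (35.0%, against 16.9% of all genes) and 1 fell. Without replicate 2, 22 of the 40 rose, against 22.0% of all genes, and 1 fell. Without replicate 3 at 2%, 9 rose. RAD27, encoding the flap endonuclease, rose from 19.7, 20.4 and 21.9 CPM to 57.1, 80.9 and 71.0 CPM (1.75 ± 0.19, adjusted p in edgeR = 3.98e-05). The S-phase cyclin gene CLB5 rose from 9.94, 14.2 and 12.1 CPM to 45.8, 51.6 and 58.2 CPM (2.10 ± 0.18, adjusted p in edgeR = 6.57e-06), and RNR3, encoding a ribonucleotide reductase subunit, rose from 47.1, 41.7 and 50.01 CPM to 102, 156 and 80.8 CPM (1.28 ± 0.21, adjusted p in edgeR = 0.000609). All libraries at 0.5% glucose lay above those at 2% in these 3. Of mitosis genes, CDC20, encoding an activator of the anaphase-promoting complex, fell from 86.5, 74.8 and 93.4 CPM to 28.8, 17.7 and 24.4 CPM (-1.84 ± 0.21, adjusted p in edgeR = 5.05e-05), and FKH2, encoding a factor for mitotic genes, fell with -1.54 ± 0.14.

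Genes known for meiosis and spore formation rose in 21 of 40 cases (52.5%) and fell in 2 (5.0%), although haploid alpha cells do not sporulate. Over all genes 16.9% rose and 17.0% fell. The median of the list was 0.70, and 0.54 without replicate 2. The 40 genes summed to 3653, 3504 and 3667 CPM at 2% glucose and 8562, 9580 and 7889 CPM at 0.5%. The genes named next had low levels and do not stand for the levels of the list. SPR28, a septin gene, rose from 2.61, 2.45 and 1.61 CPM to 25.3, 35.3 and 25.5 CPM, IRC18, a spore wall gene, rose from 0.489, 1.44 and 0.965 CPM to 15.9, 5.85 and 20.8 CPM (3.84 ± 0.54, adjusted p in edgeR = 0.000245), and CDA1, encoding a chitin deacetylase of the spore wall, rose from 3.10, 2.88 and 1.77 CPM to 18.4, 12.3 and 19.1 CPM (2.68 ± 0.27, adjusted p in edgeR = 2.23e-05). Against these, SPO21, for spore membrane growth, fell from 23.1, 22.0 and 20.9 CPM to 8.47, 6.24 and 9.61 CPM (-1.43 ± 0.24, adjusted p in edgeR = 0.000917). GCCGCC, the Ume6 motif, stood in 13 of the 40 promoters (32.5%, against 4.89% of all), of which 8 rose and none fell. Of the 27 others 13 rose and 2 fell. The medians with and without the motif were 0.80 and 0.65, but 0.51 and 0.66 without replicate 2.

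Of 35 autophagy genes, 12 rose (34.3%, against 16.9% of all genes) and 2 fell (5.7%, against 17.0%). ATG34 and ATG36, which encode receptors for vacuolar enzymes and for peroxisomes, rose from 193, 193 and 206 CPM to 466, 774 and 451 CPM and from 78.9, 80.6 and 82.5 CPM to 182, 337 and 201 CPM. ATG1, encoding the kinase that starts autophagy, fell from 544, 483 and 568 CPM to 171, 294 and 162 CPM (-1.35 ± 0.25, adjusted p in edgeR = 0.00144). Of genes for nutrient signalling and lifespan, 8 of 41 rose (19.5%, near the 16.9% of all genes) and 13 fell (31.7%, against 17.0%). Without 1 of the libraries at 2% 4 or 5 rose. SIR2, encoding the NAD-dependent histone deacetylase linked to replicative lifespan, rose from 16.1, 18.6 and 23.3 CPM to 71.1, 92.0 and 63.1 CPM (1.96 ± 0.18, adjusted p in edgeR = 1.42e-05). RAS1, encoding a GTPase of the cyclic AMP pathway, rose from 10.1, 9.64 and 8.85 CPM to 73.5, 13.1 and 58.9 CPM (2.35 ± 0.46, adjusted p in edgeR = 0.00232), and PDE1, encoding the phosphodiesterase that breaks down cyclic AMP, fell from 974, 894 and 971 CPM to 351, 180.1 and 347 CPM (-1.69 ± 0.24, adjusted p in edgeR = 0.000281). NPT1, for NAD salvage, fell with -1.35 ± 0.19. SIR2 libraries did not overlap between the groups, and those of RAS1 were separate by a narrow margin in replicate 2.

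The same step in glucose was also measured at 1 mM K, in 6 other libraries, which allows a test of whether the glucose effect differed between potassium levels. The interaction was called in 1835 of 6127 genes (29.9%), 931 with a more positive and 904 with a more negative glucose effect at 7 mM K. Without replicate 2 at 0.5% glucose and 7 mM K it was called in 2927 of 6164 (47.5%). Of genes that rose at 7 mM K, 267 (25.8%) rose at 1 mM K too, which was 26.7% of those that rose there, and 151 fell. Of those that fell at 7 mM K, 323 (31.0%) fell at 1 mM K too, 28.6% of those that fell there, and 123 rose. Without replicate 2 at 0.5% glucose and 7 mM K the counts of genes that rose at both levels, rose at 7 but fell at 1 mM K, fell at both, and fell at 7 but rose at 1 mM K were 399, 322, 517 and 252. Without any other single library they ran from 166 to 303, 96 to 150, 249 to 333 and 73 to 113. The groups at 1 mM K also held libraries that stood apart. Replicate 3 at 0.5% glucose lay more than 2-fold from both partners in 190 genes and replicate 3 at 2% in 88, against 23 to 41 for the other 4. Across the 6127 genes, deviations of the former from its group mean correlated with those of replicate 2 at 0.5% glucose and 7 mM K (Pearson r = 0.426, a description, since genes are not replicates). Without these libraries in turn, 761 and 795 genes rose at 1 mM K and 925 and 993 fell, against 1001 and 1129 with all.

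Chaperone and cell wall genes were among those whose glucose effect differed. The interaction was called in the negative direction in 15 of 21 HSP70 genes, 14 of 23 HSP90 and small heat shock genes and 22 of 44 cell wall genes, against 14.8% of all genes. Under scaling by the WBGene rows, the counts were 10, 10 and 14. At 1 mM K, 10, 7 and 19 members of these lists rose and 0, 0 and 5 fell, against 16.3% and 18.4% of all genes. Without replicate 3 at 0.5% glucose and 1 mM K 8, 5 and 17 rose, and without replicate 3 at 2% glucose and 1 mM K 8, 5 and 19. Without replicate 2 at 0.5% glucose and 7 mM K, which shares the estimate of the spread, 14, 11 and 20 rose and 1, 1 and 9 fell. The stress chaperone gene SSA4 fell at 7 mM K (-3.53) and was at 1.10 at 1 mM K, with an interaction of -4.64 ± 0.51 (adjusted p in edgeR = 9.63e-05) and of -4.04 without replicate 3 at 0.5% glucose and 1 mM K. YGP1 measured -4.06 and -0.03, with an interaction of -4.03 ± 0.49 (adjusted p in edgeR = 0.000171). Mitosis genes differed the other way, with 14 of 31 positive against 15.2% of all genes, and 19 of the 31 fell at 1 mM K.

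Among the 10 genes with the smallest interaction p, SSA2 and SUR2, which encodes a sphingolipid hydroxylase, were at -2.62 and -1.93 at 7 mM K and 0.86 and 0.84 at 1 mM K. The interactions were -3.48 ± 0.26 (adjusted p in edgeR = 1.09e-05) and -2.77 ± 0.19 (adjusted p in edgeR = 6.54e-06). MLS1, REG2, ECL1, a gene that extends chronological lifespan when overexpressed, and THI12, a thiamine gene with near-identical copies, rose at 7 mM K and had negative values at 1 mM K. MLS1 measured 1.05 and -3.21, with an interaction of 4.26 ± 0.31 (adjusted p in edgeR = 1.09e-05). REG2 measured 2.63 and -1.33, ECL1 1.51 and -1.86, and THI12 1.89 and -2.005. The other 4 fell at 7 mM K and lay between -0.66 and 0.10 at 1 mM K. TPO2 measured -7.17 and -0.66, and TDA6, of unknown function, -4.38 and -0.29. PHO13, encoding a phosphatase of metabolite repair, measured -2.88 and 0.10, and YDR222W, of unknown function, -3.81 and 0.04.

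The proton pump genes differed as well. PMA1 measured -5.95 at 7 mM K and -1.01 at 1 mM K, with an interaction of -4.94 ± 0.40 (adjusted p in edgeR = 1.57e-05), and PMA2 measured 2.16 and -2.60, with an interaction of 4.76 ± 0.40 (adjusted p in edgeR = 1.88e-05). Medians of all 6 amino acid synthesis lists were negative at both levels. Histidine genes had medians of -2.04 at 7 mM K and -0.62 at 1 mM K, and branched-chain genes -2.26 and -1.02. For acetate and lactate uptake, 6 of 9 interactions were positive and none negative, against 15.2% and 14.8% of all genes. In this list replicate 2 at 0.5% glucose and 7 mM K stood apart, with a median of 4.86 against 2.52 and 2.38 in its partners. The interaction count without that library is not given here.

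**Figure D5:**
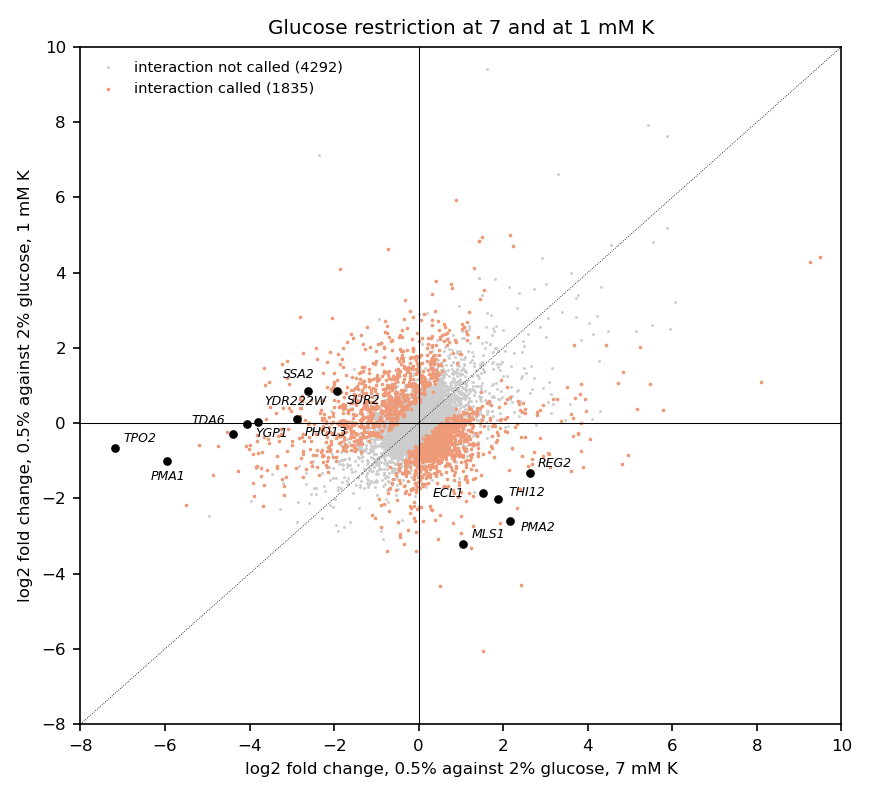
Log2 fold changes of 0.5% against 2% glucose at 7 mM K (x axis) and at 1 mM K (y axis) for 6127 genes; orange points are the 1835 genes whose interaction was called and the dotted line marks equal effects. The 10 genes with the smallest interaction p and PMA1, PMA2 and YGP1 are named; TPO2 lies at -7.17 and -0.66, and MLS1 at 1.05 and -3.21.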

How the data were processed

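Sequencing libraries were compared as 3 at 0.5% against 3 at 2% glucose, both at 7 mM K, grouped by their labels. The authors deposited 1 table of expected counts per gene and library, made with STAR 2.7.1a and RSEM 1.3.3 against yeast build R64, per the submitters' processing notes; its annotation is not given in the sources used here, and all its values were whole numbers. Of 7127 rows with yeast identifiers, 6444 matched the RefSeq annotation by name; 39777 rows with WBGene identifiers were left out. Depth, 6277688 to 6987994 yeast counts in these 6 libraries, limits precision for genes with few counts.

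From these counts, edgeR 4.0.16 (R 4.3.3) was fitted to all 12 libraries with 1 mean per group, TMM scaling over yeast rows, its default filter on low counts (6127 genes kept), robust quasi-likelihood tests with 8 residual degrees of freedom and Benjamini-Hochberg adjustment over all genes tested. The interaction was the glucose effect at 7 mM K minus that at 1 mM K. CPM were computed on TMM-scaled totals. Alternatives used DESeq2 1.42.0, limma 3.58.1, other scalings and filters, a fit of the 6 libraries alone, blocking by replicate number and omission of each library in turn. On simulated counts for these genes, 96.0% of 4-fold and 42.0% of 2-fold falls, 50 genes each, were recovered. The simulation gave all groups the same mean per gene, changed few genes and held no library that stood apart. Recovery in the real libraries may therefore differ.

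The gene lists, members and tests were chosen with earlier results of these data known. Named genes were the 15 highest and 15 lowest separated changes with a mean of at least 10 CPM, with and without replicate 2, members of lists of up to 13 genes, the 5 smallest p and up to 3 opposed members of longer lists, isozyme pairs, ion transporters, strain markers and the 10 smallest interaction p. A promoter sequence beyond the 5 shown is not reported here, nor are its gene's values. HXT7, ICL1, MPC2, MPC3, PCK1, RPL41A, RPL41B and YAT1 were named outside this rule, after their values were seen. P-values measure the spread among libraries whose replicates the labels call biological.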

Additional observations from a re-analysis of the deposited data

Results flagged for a closer look

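Of 160 tested genes named in the text, 117 passed the test of the interaction in edgeR, that is, of a glucose effect that differs between 7 and 1 mM K, against 29.9% of all genes; genes named for their change at 7 mM K share that change with the interaction. The interaction is given for 14 of them; each value is the log2 fold change at 7 mM K minus that at 1 mM K. It was more negative at 7 mM K for TPO2 (-6.51), PMA1 (-4.94), SSA4 (-4.64), TDA6 (-4.09), YGP1 (-4.03), YDR222W (-3.85), SSA2 (-3.48), PHO13 (-2.98) and SUR2 (-2.78). It was more positive for PMA2 (4.76), MLS1 (4.26), REG2 (3.96), THI12 (3.89) and ECL1 (3.38). These 14 were chosen with their values in view, 10 of them as those with the smallest interaction p.

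Rows with WBGene identifiers, which belong to no comparison above, took between 34.0% and 40.7% of the counts in each of the 6 libraries at 7 mM K. Their source is not given in the sources used here.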

How the results depend on the processing

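The counts of called genes kept within 1.5 times of their values (2077 in all, 1035 up, 1042 down, 1835 for the interaction) in 80 of 90 combinations of count and alternative. With limma voom and sample quality weights they were 3686, 1883, 1803 and 3741. In the 6 libraries alone without replicate 2 at 0.5% glucose, an alternative chosen after seeing the data, they were 3730, 1904 and 1826 at 7 mM K, against 704 and 796 with that replicate. Scaling by the WBGene rows called 557 down. Leaving out single libraries gave 1455 to 2701 in all, 667 to 1358 up, 788 to 1343 down and 1362 to 2927 for the interaction, the highest each time without replicate 2 at 0.5% glucose and the lowest of up and of down without replicate 1 at 2%. With a replicate block 845 rose and 947 fell. Replicate numbers did not pair the libraries: correlations of same-numbered deviations from group means ran from -0.366 to 0.328, with 3 of 18 over 0.1.

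HIS1 reversed from 1.07, not called, to -1.80 without replicate 2 (1.65, not called, without replicate 3), -1.77 with voom and -1.81 in the 6 libraries alone without it. Of 147 called genes named, 10 lost the call in the fit of the 6 libraries alone, 4 without each library at 2% and at most 2 under any other alternative. Only genes with an adjusted p were counted, which were 139 of the 147 in DESeq2 and 145 under the stricter filter. The rest had no call there to keep or lose. List medians stayed within the spread of the 3 libraries in 1317 of 1402 combinations. That spread was the standard deviation of a list's medians in the 3 libraries at 0.5% glucose, so replicate 2 widened it where it stood apart. For ribosome assembly these medians were 0.33, -1.72 and 0.11. Its change from -0.13 to 0.22 without replicate 2 therefore counted as within the spread. Medians that changed sign under a scaling or without replicate 2 included those for ribosome assembly, general stress, purine synthesis, respiratory chain, glucose sensing, isozyme pairs and nutrient signalling. With 3 libraries a group, small changes in genes with few counts were not detectable, and the causes of the shifts were not tested.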
